A study of Mus musculus with 6 samples.

Results

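The genes described here are 49 genes of DNA replication, from the proteins that mark and license replication origins to those that unwind, copy and join DNA at the fork, with the enzymes that supply nucleotides and a pair of transcription factors that regulate many of them. They were chosen by name and arranged by complex, not by how they moved, but with earlier results of these data known. All 49 symbols were found among the 50686 gene identifiers of the count tables, and all 49 passed the filter on low counts that left 16729 genes for testing.

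RNA sequencing compared mouse induced pluripotent stem cells (iPSCs) under intermittent compressive force (ICF) with an unloaded control, 3 samples in each group. The iPSCs had been reprogrammed from gingival fibroblasts, formed embryoid bodies with retinoic acid, and were attached to gelatin-coated dishes. Samples of the ICF group were loaded at 1.5 g per square cm and 0.23 Hz for 24 h in serum-free medium, and those of the control group were kept without load. The labels number the samples as donors 1 to 3 in each group, called replicates here, whereas the study's methods speak of independent experiments and name no donors, so the p-values measure the spread between these samples, which may be technical. The question was whether the loaded cells held more or less mRNA of each replication complex.

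Cells copy their genome from many origins. In G1 phase the origin recognition complex, Cdc6 and Cdt1 load the MCM2-7 helicase onto DNA in an inactive form, a step called licensing, and geminin blocks Cdt1 once S phase has begun so that no origin is licensed again. The kinase Cdc7 with its partner Dbf4 then activates the loaded helicase together with Cdc45 and the GINS complex, and polymerases follow behind it. Many of these genes are transcribed under E2F control late in G1, and pluripotent cells, which have a short G1 phase, keep many of them at a high level throughout the cycle.

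As many of these genes are known E2F targets, the promoter windows of RefSeq (GRCm38.p6, from 250 bases before to 50 after a transcript's start) were searched on both strands for the E2F letters TTTCCCGC, TTTGGCGC, TTTCGCGC and TTTGCCGC. Of the 49 genes, 41 had a window, and 16 of these held at least 1 match. Counted over windows, 17 of 51 (33.3%) had a match, against 2.26% of all 32851 windows and 2.85% of the 21263 windows of protein-coding genes. For comparison, the letters CCAAT were in 49.0% of the replication gene windows and 37.4% of all windows, and the letters TTTGAA, the cell cycle homology region found in genes of G2 and M phase, in 15.7% and 17.9%. Upstream stretches that end before the annotated start are shown for 3 genes with E2F matches, in capitals, and for Orc2 and Dbf4, the genes at the centre of the comparison below, which had none. Each is printed 5′ to 3′ on the strand of its gene.
Mcm5 (chr8:75109349-75109508, plus strand): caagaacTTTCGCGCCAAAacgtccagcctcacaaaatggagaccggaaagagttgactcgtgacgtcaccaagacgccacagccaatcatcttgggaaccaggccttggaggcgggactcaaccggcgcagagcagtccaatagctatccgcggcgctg
Mcm6 (chr1:128359706-128359865, minus strand): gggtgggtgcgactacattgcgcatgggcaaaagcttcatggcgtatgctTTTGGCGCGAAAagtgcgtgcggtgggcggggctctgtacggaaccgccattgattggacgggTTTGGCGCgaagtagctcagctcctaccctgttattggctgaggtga
Tfdp1 (chr8:13338591-13338750, plus strand): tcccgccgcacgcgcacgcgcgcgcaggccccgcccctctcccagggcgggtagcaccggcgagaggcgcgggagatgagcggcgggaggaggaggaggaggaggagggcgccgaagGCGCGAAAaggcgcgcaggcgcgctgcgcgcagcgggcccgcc
Orc2 (chr1:58505110-58505269, minus strand): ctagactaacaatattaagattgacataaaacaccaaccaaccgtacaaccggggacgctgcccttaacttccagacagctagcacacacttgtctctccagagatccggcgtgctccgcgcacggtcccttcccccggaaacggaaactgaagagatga
Dbf4 (chr5:8422717-8422876, minus strand): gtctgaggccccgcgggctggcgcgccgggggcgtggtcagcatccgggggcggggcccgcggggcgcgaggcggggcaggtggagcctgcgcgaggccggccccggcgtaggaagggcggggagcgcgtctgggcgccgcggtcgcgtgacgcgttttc

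In Mcm5 the letters TTTCGCGC began at base -153 from the start and overlapped the reverse complement GCGCCAAA at -149. Mcm6 had 3 matches, an overlapping pair at -110 and -106 and another at -47. The matches were uneven among complexes. They were found in 4 of the 5 MCM2-7 genes with a window (Mcm3, Mcm5, Mcm6 and Mcm7) and in both licensing factors, Cdc6 and Cdt1. Among the origin recognition genes 2 of 6 held one (Orc1 and Orc3), and none of the 4 genes of nucleotide supply did. Absence of a match says only that these letters are not in this window.

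Library depth ran from 28711166 to 34194413 counts on genes. ICF replicate 3 stood apart: 89.0% of its counts above 0 could be divided by 4, where the range elsewhere was 20.3% to 21.5%, and it had counts on 20802 genes, against 24340 to 24889. A step of 4 is small beside the counts of the replication genes, whose means ran from 719.8 to 14776 and whose lowest count in any sample was 576. The number of reads behind the counts of this sample is not known, however. Its sampling error may be larger than its depth implies, which was not tested. Pluripotency genes summed to 3404 to 3761 CPM (TMM-normalised counts scaled to a common library size) in the control samples and 3520 to 3742 CPM in the ICF samples, with 0 of 10 called. Fibroblast and mesenchyme markers summed to 230.2 to 262 CPM in control and 264 to 287 CPM in ICF samples, with 2 of 9 tested genes (Col1a1 and Col3a1) higher. Lists for neural progenitors (4 tested) and blood cells (2 tested, with Ptprc and Adgre1 below the filter) had no call, and that for endoderm had 1 of 5, Sox17, lower. With the replicate number as a block, the calls were Dnmt3b higher and Utf1 lower among pluripotency genes, Col1a1, Col1a2, Col3a1 and Twist1 higher among fibroblast markers, Nes higher among neural genes, and Gata6 higher and Sox17 lower among endoderm genes. Of all genes tested, 3.47% were called higher and 4.38% lower without the block, and 14.6% and 15.3% with it. A companion list of 12 genes of G2 and M phase had 0 higher and 2 lower, Ccnb2 with a log2 fold change of -0.49 and Bub1 with -0.33. The list had 9 lower with the block. Its sum was 2803 to 3098 CPM in control and 2554 to 2664 CPM in ICF samples, without overlap. The share of counts on mitochondrially encoded genes was 1.92% to 2.24% in control and 2.18% to 2.60% in ICF samples. The part of these differences in the results below was not tested, and in bulk RNA fewer cells of a type and less RNA per cell cannot be told apart.

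The replication genes as a whole stood at nearly the same level in both groups. Their fold changes lay between -0.28 and 0.31 on the log2 scale (ICF over control), 27 were positive and 22 negative, and the median was 0.021, against 0.0026 for all genes tested. The size of the change, without its sign, had a median of 0.096 against 0.17 for all genes, and 26 of the 49 (53.1%) differed by less than 0.1 against 32.9% of all genes. The replication genes were also more abundant than most, with a median control level of 118 CPM against 17.6 CPM. The part of abundance in the narrower range was not tested.

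By edgeR's quasi-likelihood test with Benjamini-Hochberg adjustment over all genes, 1 of the 49, Dbf4, was called higher with ICF, where the background was 3.47% of all genes, and 0 were called lower, where it was 4.38%. At an unadjusted p under 0.05 there were 9 higher and 2 lower, or 22.4% of the 49, against 25.6% of all genes. Another 7 had an adjusted p between 0.05 and 0.1. DESeq2 called 5 higher (Orc2, Cdc6, Dbf4, Prim1 and Tfdp1; background 5.95%) and 1 lower (Gmnn; background 7.26%). With the replicate number as a block, edgeR called 9 higher (Orc2, Cdc6, Mcm10, Gins3, Dbf4, Prim1, Rpa2, Rrm2 and Tfdp1) and 6 lower (Gmnn, Pold1, Pold2, Lig1, Tk1 and E2f1). These were 18.4% and 12.2% of the 49, beside backgrounds of 14.6% and 15.3%. The block, and the same-numbered pairs below, rest on the replicate numbers. The data set replicate 3 apart in both groups but do not tell numbers 1 and 2 apart. Without ICF replicate 3 and without the block, 0 were called higher and 1 lower (Gmnn), with backgrounds of 3.73% and 4.52%. With replicate 3 of both groups left out and the block kept, 5 were higher, the same 5 as in DESeq2, and 5 were lower (Gmnn, Pold1, Pold2, Lig1 and Tk1), with backgrounds of 12.8% and 14.0%. That fit has 2 samples per group and was chosen after the data were seen. It uses samples that the DESeq2 fit also used, so the match is no separate support. Leaving out control replicate 3 gave 1 higher (Orc2, adjusted p = 0.0264) and 1 lower (Lig1, 0.0281) in place of Dbf4, and leaving out control replicate 1 or 2 or ICF replicate 1 or 2 gave 0 in each direction. The share of all genes is not given for these fits.

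A count that rests on no model set the ranges of the groups side by side. The ICF samples lay above all control samples for 14 genes (28.6%; 15.6% of all genes) and below them for 4, Gmnn, Pold3, Pole and Lig1 (8.16%; 15.7% of all genes). Within same-numbered pairs, 18 genes (36.7%) were higher with ICF in all 3 and 12 (24.5%) lower, against 28.3% and 28.3% of all genes. These are counts over genes that share samples, and no test was made of them. The exact two-sided permutation test of a single gene cannot pass 0.05 with 3 samples against 3, where its smallest p is 0.1.

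**Figure D1:**
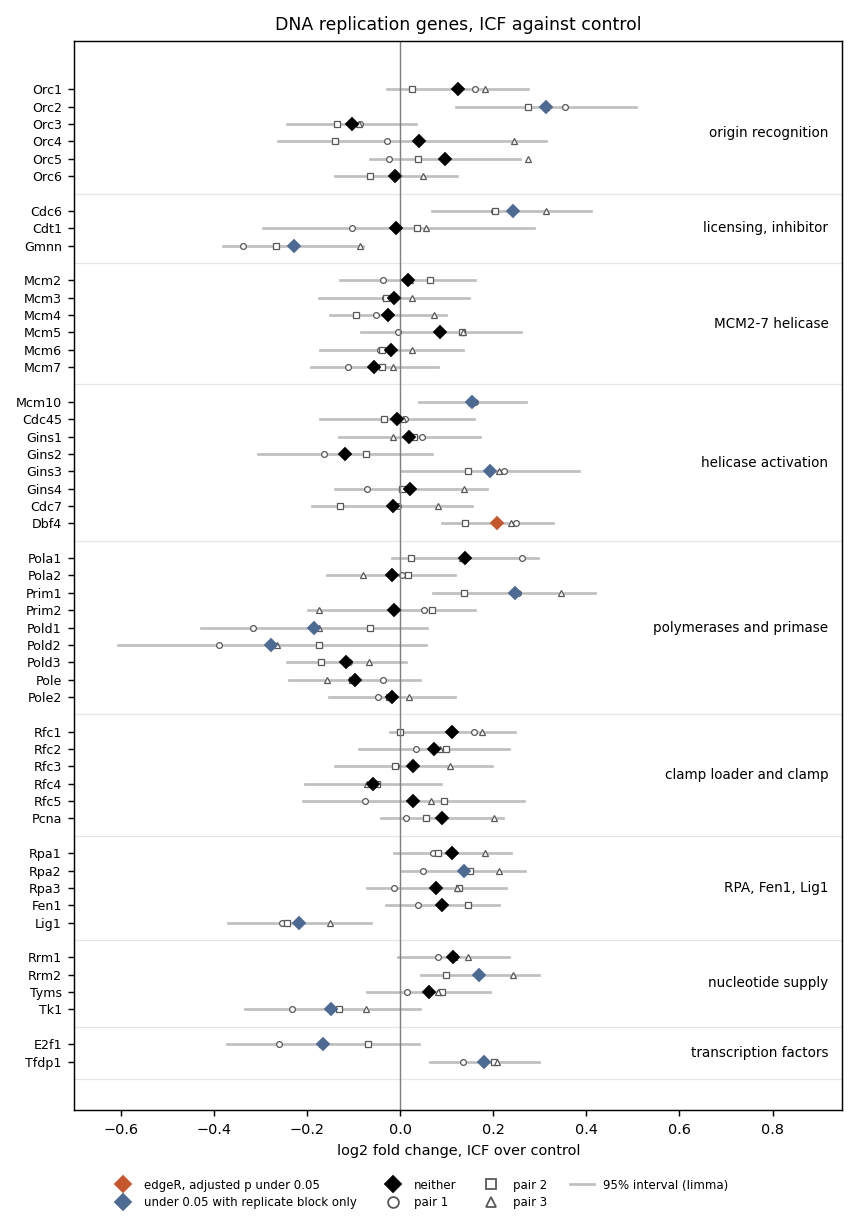
Log2 fold change (ICF over control, horizontal axis) of each of the 49 replication genes, grouped by complex. Diamonds are the fitted values, orange for an adjusted p under 0.05 in edgeR without the block (Dbf4). Blue marks genes under 0.05 in edgeR only with the replicate block (14 genes), and black marks neither. Open symbols are the 3 same-numbered pairs and grey bars 95% intervals from limma. The 6 MCM2-7 genes lie near 0, and the largest values are those of Orc2 on the right and Pold2 on the left.

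The origin recognition complex, which binds origins and is the platform on which the helicase is loaded, had 0 of 6 genes called without the block. Orc2, a core subunit (ENSMUSG00000026037, chr1:58462771-58505109 in GRCm38), measured 126, 132 and 149 CPM in control replicates 1 to 3 and 161, 160.1 and 186 CPM in ICF replicates 1 to 3. All 3 ICF samples were above all 3 control samples, and replicate 3 was the highest in both groups. The difference was 0.31 on the log2 scale (SE 0.10, n = 3 per group), with an adjusted p of 0.0599 in edgeR's test, 0.0141 in DESeq2 and 8.25e-06 with the block. Of 75-base stretches of its transcript, 20.4% also lie in the overlapping gene Nif3l1 on the opposite strand, and whether the counting used strand is not stated in the sources used here.

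The other subunits were closer to even. Orc1, the ATPase whose level cycles with cell division, measured 75.6, 80.1 and 80.8 CPM in control and 84.5, 81.5 and 91.7 CPM in ICF samples, which did not overlap, for a log2 difference of 0.12 (adjusted p = 0.287 in edgeR). Orc3 had the lowest value in the complex, -0.10, with 93.6, 93.4 and 87.3 CPM against 88.2, 85.0 and 82.2 CPM. Its groups overlapped. Orc4 showed how much replicate 3 could matter: ICF replicates 1 and 2 were at 68.4 and 61.1 CPM and ICF replicate 3 at 89.4 CPM, so that a difference of 0.041 became -0.12 without that sample. Orc6, at 53.1 CPM per kilobase of exon the highest of the complex by level per length, had a log2 difference of -0.011. Orc5 had 0.096, with overlapping groups.

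Among the licensing factors, Cdc6 and the inhibitor geminin had values of opposite sign. Cdc6, the ATPase that joins the origin recognition complex to recruit the helicase (ENSMUSG00000017499, chr11:98907801-98923940), stood at 97.5, 97.7 and 105 CPM in control and 112, 112 and 131 CPM in ICF samples. Each ICF sample was above the highest control sample. The log2 difference was 0.24 (SE 0.080), with an adjusted p of 0.0852 in edgeR, 0.0480 in DESeq2 and 5.68e-04 with the block. Without ICF replicate 3, its highest sample, the difference was 0.17 and the adjusted p 0.121.

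Gmnn, which encodes geminin (ENSMUSG00000006715, chr13:24751845-24761923), was at 120.0, 118 and 115 CPM in control and 94.9, 98.2 and 108 CPM in ICF samples. The ICF samples were all lower, and ICF replicate 3 was the nearest to the controls. The log2 difference of -0.23 (SE 0.060) had an adjusted p of 0.0703 in edgeR, 0.0263 in DESeq2 and 0.00130 with the block. Without ICF replicate 3 it was -0.28, with an adjusted p of 0.0231, and Gmnn was then the only replication gene that edgeR called without the block. Cdt1, the loading factor that geminin binds, measured 222, 211 and 163 CPM in control and 207, 216 and 169.6 CPM in ICF samples. Its replicates were spread widely within both groups, with replicate 3 the lowest in each, and the group means of 199 ± 31.3 and 198 ± 24.7 CPM (SD, n = 3) were nearly the same.

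The MCM2-7 helicase had the highest summed level of the complexes and nearly the same sum in both groups. The 6 genes summed to 2636, 2636 and 2379 CPM in control and 2553, 2648 and 2452 CPM in ICF samples, with means of 2551 ± 148 and 2551 ± 98.0 CPM (SD, n = 3). Replicate 3 had the lowest sum in both groups. Mcm2, the subunit with a histone-binding tail, measured 465, 456 and 423 CPM and 454, 477 and 429.8 CPM, and the groups overlapped. The log2 differences of the 6 subunits ran from -0.056 for Mcm7 to 0.086 for Mcm5, every subunit overlapped between groups, and adjusted p-values in edgeR lay between 0.52 and 0.93. The 95% intervals of the 6 genes reached from -0.19 to 0.26 on the log2 scale, and each of them included 0. Mcm7 shared 14.5% of its 75-base stretches on the same strand with other genes, and Mcm3 and Mcm6, which shared none, had values of -0.014 and -0.020. Mcm4 had -0.025.

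**Figure D2:**
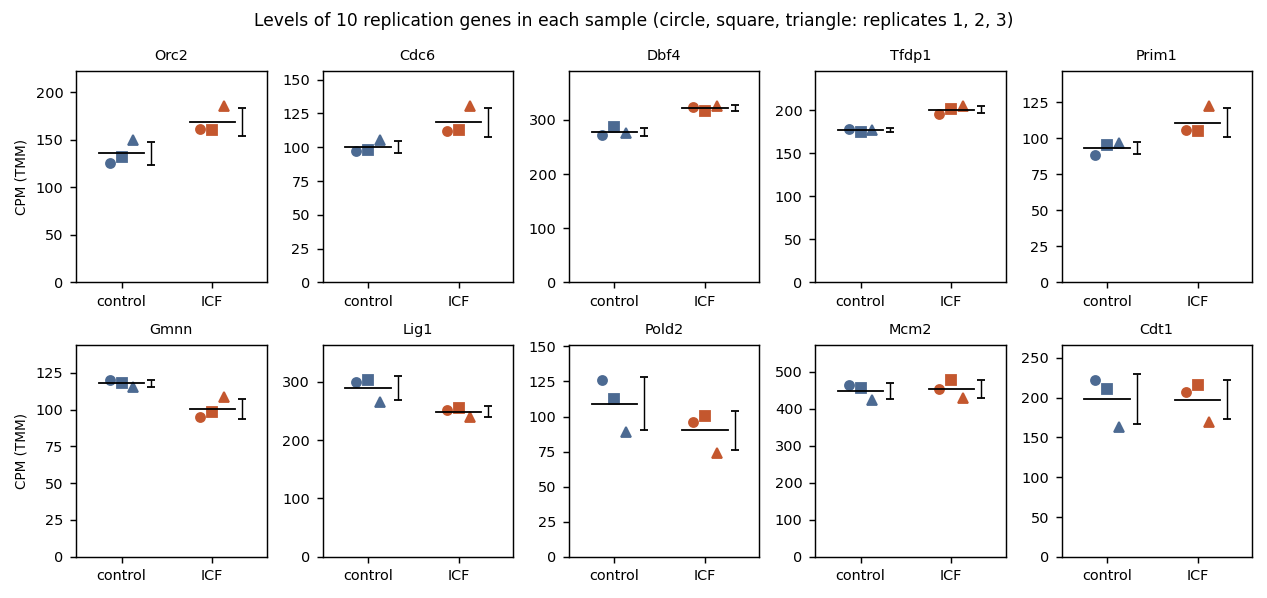
CPM (TMM-normalised, vertical axis from 0) of 10 replication genes in each of the 3 control (blue) and 3 ICF (orange) samples; lines are group means and bars beside them SD, n = 3. Orc2, Cdc6, Dbf4, Tfdp1 and Prim1 have all ICF samples above the controls, Gmnn and Lig1 have them below, and Pold2, Mcm2 and Cdt1 overlap.

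Helicase activation held the single call without the block. Dbf4, the regulatory subunit that the Cdc7 kinase needs (ENSMUSG00000002297, chr5:8396973-8422716), measured 272, 286 and 276 CPM in control and 323, 316 and 326 CPM in ICF samples. The replicates of each group were close together and the groups well apart. Dbf4 rose by 15.5%, a log2 difference of 0.21 (SE 0.026, n = 3 per group), with an unadjusted p of 0.00387 and an adjusted p of 0.0496 in edgeR. The adjusted p lay just under the threshold: it was 0.0146 in DESeq2 and 0.00127 with the block, but 0.052 with RLE size factors, 0.0744 with a looser filter (at least 1 count in any sample), under which Orc2 was the single call (0.00991), and between 0.0625 and 0.189 when any of the 6 samples was left out. The kinase subunit itself, Cdc7, measured 51.3, 55.4 and 54.9 CPM and 51.1, 50.6 and 58.1 CPM, a difference of -0.016. Per kilobase of exon, the control level of Cdc7 was 0.404 of that of Dbf4. The exon length used for Dbf4 was 8728 bases, against 2402 in its longest coding transcript. For Cdc7 these were 4183 and 3129, so the level of Dbf4 per length is the more understated.

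Mcm10, a scaffold needed for the helicase to start moving, had the smallest spread within groups, at 140.0, 139 and 139.8 CPM in control and 157, 154 and 155 CPM in ICF samples. Its log2 difference of 0.15 had an adjusted p of 0.0993 in edgeR and 0.0166 with the block. The 4 GINS subunits, which bind the helicase as 1 assembly, did not share a direction. Gins3 was at 21.8, 22.8 and 20.0 CPM in control and 25.5, 25.3 and 23.2 CPM in ICF samples without overlap (0.19, adjusted p = 0.190 in edgeR, 0.0470 with the block). Gins1, Gins2 and Gins4 had values of 0.019, -0.12 and 0.021, with overlapping groups, and Gins2 had -0.052 without ICF replicate 3. For Gins2, 70.2% of the stretches lie in a gene on the opposite strand, Gse1. Gins4 had the highest level per length of the helicase activation genes, 53.3 CPM per kilobase. That order depends on the exon length used, which for Dbf4 was far longer than its longest coding transcript. Cdc45, the other helicase partner, had a difference of -0.0064. As a sum, the 8 genes stood at 751, 771 and 736 CPM in control and 813, 809 and 808 CPM in ICF samples, with no overlap and a log2 ratio of 0.11 (SD over pairs 0.033), and Dbf4 contributed most of the difference. Weighted per kilobase of exon the ratio was 0.057.

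Of the 9 polymerase and primase genes 0 were called without the block, and their values had both signs. Prim1, the catalytic subunit of the primase that lays down primers (ENSMUSG00000025395, chr10:128015168-128030037), measured 88.6, 95.3 and 96.5 CPM in control and 106, 105 and 122 CPM in ICF samples, all of them higher. Its log2 difference of 0.25 (SE 0.083) had an adjusted p of 0.0840 in edgeR, 0.0478 in DESeq2, 6.28e-04 with the block and 0.118 without ICF replicate 3. Its partner Prim2 had a difference of -0.014, and the polymerase alpha subunits Pola1 and Pola2 had 0.14 and -0.018, with overlapping groups.

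Polymerase delta, which copies the lagging strand, had lower ICF means in Pold1, Pold2 and Pold3. Pold2, its accessory subunit (ENSMUSG00000020471, chr11:5872180-5878292), measured 126, 113 and 88.9 CPM in control and 96.1, 100.05 and 74.0 CPM in ICF samples. The groups overlapped, replicate 3 was far below replicates 1 and 2 in both, and ICF was lower within each same-numbered pair. The difference of -0.28 (SE 0.20) had an adjusted p of 0.268 in edgeR without the block and 1.68e-04 with it. It was -0.15 without ICF replicate 3, the library with counts in steps of 4, and -0.16 without control replicate 1. Pold1, the catalytic subunit, followed the same pattern at 222, 205 and 175 CPM and 178, 196 and 155 CPM (-0.18, adjusted p = 0.317 in edgeR and 0.00658 with the block), and without ICF replicate 3 it was -0.094. Pold3 was at 118, 122 and 113 CPM and 109, 109 and 108 CPM, without overlap (-0.12, adjusted p = 0.240). Pold4, a further delta subunit from the genes listed below, had -0.36 with overlapping groups (adjusted p = 0.297 in edgeR and 0.00971 with the block). It was lower within each same-numbered pair, and its difference was -0.17 without ICF replicate 3. For polymerase epsilon of the leading strand, Pole was below its controls in every ICF sample (-0.098, adjusted p = 0.366), and Pole2, which shared 10.5% of its stretches with another gene, had -0.018. Its accessory subunits, among the further genes below, did not share this direction. Pole3 was above its controls in every ICF sample (0.18, adjusted p = 0.103 in edgeR and 0.0180 with the block), and Pole4 had 0.013. The 9 genes summed to 989, 982 and 912 CPM in control and 939, 951 and 883 CPM in ICF samples, which overlapped. The group means were 961 ± 42.7 and 924 ± 36.4 CPM (SD, n = 3). The log2 ratio was -0.056 (SD over pairs 0.017, which rests on the replicate numbers), and -0.024 without ICF replicate 3.

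**Figure D3:**
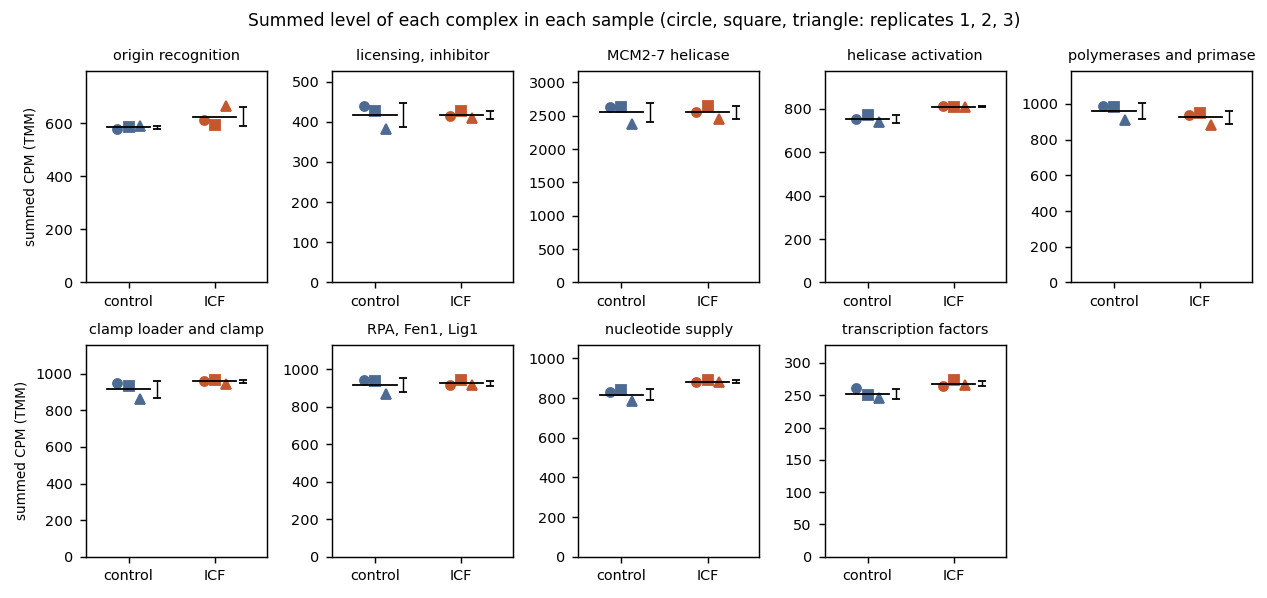
Summed CPM (TMM-normalised, vertical axis from 0) of the genes of each of the 9 complexes or roles in each control (blue) and ICF (orange) sample; lines are group means and bars SD, n = 3. Origin recognition, helicase activation, nucleotide supply and the transcription factors have all ICF sums above the control sums, narrowly for origin recognition and the transcription factors. The MCM2-7 means coincide.

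The sliding clamp and its loader had 0 of 6 genes called, with or without the block. Pcna, the clamp that tethers polymerases to DNA, measured 307, 295 and 289 CPM in control and 309.7, 307 and 332 CPM in ICF samples, and the groups overlapped (0.090, adjusted p = 0.380 in edgeR). As 23.7% of its stretches also occur in a pseudogene, Pcna-ps2, its counts are less certain. Rfc1, the large subunit of the clamp loader, measured 186, 205 and 191 CPM and 208, 205 and 216 CPM and had the largest value of the loader, 0.11, with control replicate 2 and ICF replicate 2 nearly equal. Rfc4 had the lowest, -0.058, and Rfc2, Rfc3 and Rfc5 had 0.072, 0.027 and 0.027.

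Single-strand binding and the joining of Okazaki fragments, the short pieces of the lagging strand, gave values of both signs. Lig1, the ligase that seals the pieces (ENSMUSG00000056394, chr7:13277283-13311433), measured 301, 303 and 266 CPM in control and 252, 256 and 239 CPM in ICF samples. Every ICF sample was below every control sample. The log2 difference of -0.22 (SE 0.068) had an adjusted p of 0.0859 in edgeR, 0.0523 in DESeq2 and 8.89e-04 with the block. Fen1, the nuclease that trims the flap before the ligase acts, was at 124, 119.5 and 123 CPM and 128, 132 and 131 CPM (0.090, adjusted p = 0.333), but 79.9% of its stretches lie in a gene on the opposite strand, Gm10143. The single-strand binding protein RPA had a positive value in each subunit. Rpa2 measured 148, 146 and 137 CPM and 153, 162 and 159 CPM (0.14, adjusted p = 0.184 in edgeR and 0.0404 with the block), and Rpa1 and Rpa3 had 0.11 and 0.077. ICF samples did not overlap the controls for Rpa1, Rpa2 and Fen1. Rpa3 shared 13.1% of its stretches with another gene.

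For nucleotide supply, both subunits of ribonucleotide reductase, the enzyme that makes deoxynucleotides, had higher values in every ICF sample. Rrm2, its S-phase subunit (ENSMUSG00000020649, chr12:24708241-24714146), measured 373, 399 and 367 CPM in control and 420.3, 427 and 434 CPM in ICF samples. The difference of 0.17 (SE 0.039) had an adjusted p of 0.104 in edgeR and 0.00746 with the block. Rrm1 had 259.7, 252 and 244 CPM against 275, 273 and 269.8 CPM (0.11, adjusted p = 0.225). Tyms, which makes thymidylate, had 0.061, and Tk1, the thymidine salvage kinase, had -0.15 with 83.4, 79.2 and 69.0 CPM against 71.0, 72.3 and 65.6 CPM (adjusted p = 0.298 in edgeR and 0.0432 with the block). The value of Tk1 was -0.091 without control replicate 1 and -0.22 without control replicate 3. The 4 genes summed to 829, 841 and 785 CPM in control and 880.1, 890.3 and 881 CPM in ICF samples without overlap, a log2 ratio of 0.11 (SD over pairs 0.047), and Rrm2 contributed most of the difference.

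The E2F partner Tfdp1 and the activator E2f1 had values of opposite sign. Tfdp1, which pairs with E2F proteins to bind DNA (ENSMUSG00000038482, chr8:13338751-13378448), measured 179, 175 and 178 CPM in control and 196, 201 and 205 CPM in ICF samples, with narrow groups well apart. The log2 difference of 0.18 (SE 0.020) had an adjusted p of 0.0715 in edgeR, 0.0397 in DESeq2 and 0.00501 with the block. Of its stretches 19.4% also occur in another gene, Gm7390. E2f1 measured 82.4, 75.6 and 68.3 CPM and 68.8, 72.1 and 60.8 CPM, which overlapped (-0.17, adjusted p = 0.294 in edgeR and 0.0245 with the block), and its difference was -0.091 without ICF replicate 3 and -0.098 without control replicate 1. The replication genes with the E2F letters in their promoter window had a median log2 difference of -0.011 (n = 16, from -0.22 to 0.24), and those with a window and no match had 0.077 (n = 25, from -0.28 to 0.31). With the block, 5 of the 16 and 9 of the 25 were called in either direction, where 14.6% of all genes were higher and 15.3% lower. The division was made as a description and was not tested.

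Compared per length, the replication genes spanned a wide range of levels in both groups. The highest control level was that of Rrm2, 137 CPM per kilobase of exon, followed by Pcna with 124, Mcm3 and Mcm5 with 115 each and Mcm7 with 106. The lowest was Gins3 with 7.96, so that highest and lowest differed 17.2 times. Subunits of 1 complex were not at 1 level: within the origin recognition complex Orc4 had 9.51 and Orc6 53.1 CPM per kilobase, and in the polymerase group Prim2 had 8.65 and Pold2 57.6. Gmnn was at 80.4, Lig1 at 67.9 and Tfdp1 at 48.3 CPM per kilobase in control samples. The MCM2-7 subunits ran from 64.5 for Mcm2 to 115. Exon length is the union of annotated exons, so levels of genes with long rarely used exons are understated. It was 2400 bases for Pcna and 2771 for Rrm2, against 1518 and 2193 in their longest coding transcripts. For Prim2 it was 5938 against 1975, and for Pold2 1896 against 1646. The order of the highest genes and the distance between Prim2 and Pold2 depend on the length used.

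**Figure D4:**
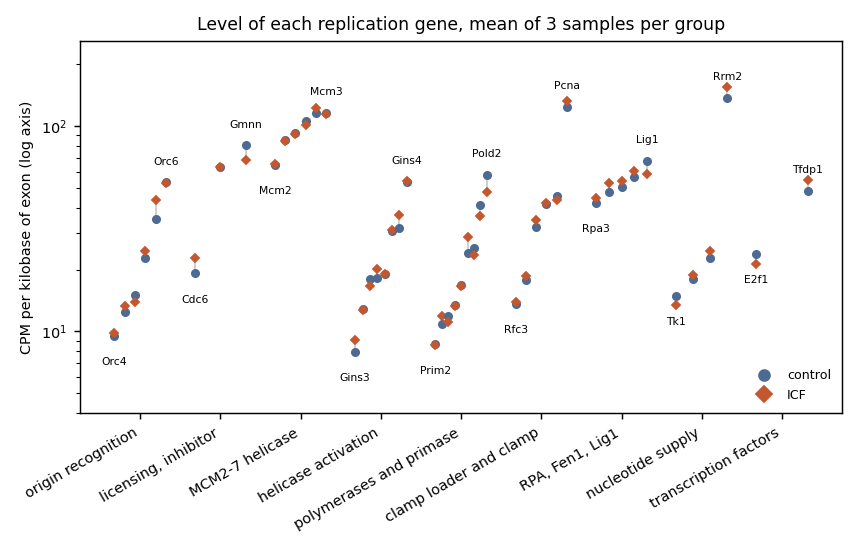
Mean level of each replication gene in CPM per kilobase of exon (vertical log axis), by complex, for control (blue circles) and ICF (orange diamonds), n = 3 each; the lowest and highest gene of each complex is named. Levels span from 7.96 for Gins3 to 137 for Rrm2 in control, and the distance between the groups is small beside the range among genes.

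Replicate 3 deviated in the same direction in both groups for most of these genes. It was below the mean of replicates 1 and 2 in both groups for 27 genes and above it in both for 11, and in the other 11 the groups differed in sign. Pold2 deviated by -0.42 in the control group and -0.41 in the ICF group on the log2 scale, Cdt1 by -0.41 in the control group and -0.32 in the ICF group, Pold1 by -0.28 in the control group and -0.27 in the ICF group and Rfc5 by -0.31 in the control group and -0.25 in the ICF group. In the other direction, Orc2 deviated by 0.21 in the control group and 0.21 in the ICF group. Orc4 was the least alike, with 0.14 in the control group and 0.47 in the ICF group. Across the 49 genes the deviations in the groups had a correlation of 0.82, given as a description because the points share the same 6 libraries. Pold1, Pold2, Tk1 and E2f1, which overlapped between groups and were called in all 6 samples only with the block, were among the genes with replicate 3 low in both. Replicate 3 also had the highest share of reads on no feature in each group. This share was 9.3% in control replicate 3 and 9.0% in ICF replicate 3, against 6.2% to 6.7% in the other samples. Its part in the deviations was not tested.

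**Figure D5:**
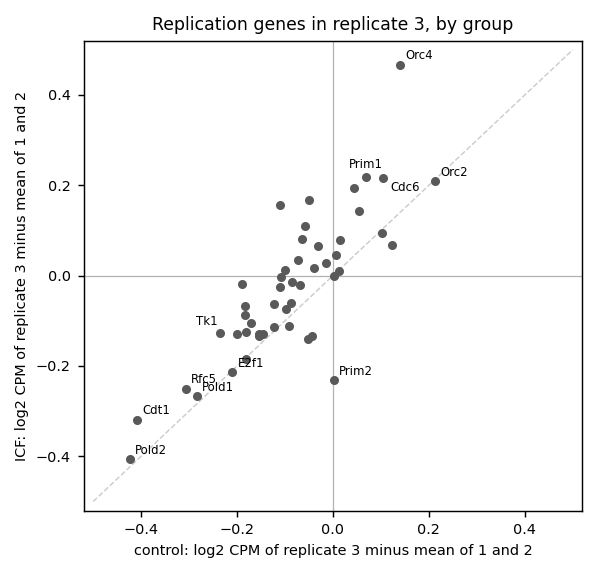
Deviation of replicate 3 from the mean of replicates 1 and 2 (log2 CPM) in the control group (horizontal axis) and the ICF group (vertical axis); each point is 1 of the 49 replication genes and the dashed line marks equal deviation. Most points lie near the line, with Pold2 and Cdt1 at the lower left and Orc4 farthest above it.

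Of 56 further genes of DNA replication, listed by role, all were tested and 4 were higher and 3 lower in edgeR's test without the block, where the background was 3.47% and 4.38% of all genes. Mcm9, a paralog of the MCM subunits that acts in recombination, was at 21.5, 22.2 and 21.6 CPM in control and 16.5, 16.9 and 16.2 CPM in ICF samples, and it fell by 0.40 on the log2 scale (adjusted p = 0.0175). Cul4a and Ddb1, subunits of the ubiquitin ligase that marks Cdt1 for destruction in S phase, fell by 0.25 (adjusted p = 0.0335) and fell by 0.22 (adjusted p = 0.0435). Ddb1 measured 1419, 1410.2 and 1352 CPM and 1187, 1189 and 1219 CPM. Dtl, the subunit that directs this ligase to Cdt1, had 0.0045 and was not called. Without ICF replicate 3 the counts were 2 higher and 3 lower, and with the block they were 13 higher (23.2%) and 5 lower (8.93%), beside backgrounds of 14.6% and 15.3%. Leaving out control replicate 1 or 2 or ICF replicate 1 or 2, without the block, gave 0 in each direction, and leaving out control replicate 3 gave 3 higher and 2 lower. For these fits no share of all genes is given.

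The genes that rose have separate roles. Asf1a, a histone chaperone, rose by 0.28 on the log2 scale (adjusted p = 0.0272), from 65.1, 64.4 and 65.8 CPM to 78.6, 83.0 and 75.8 CPM. Recql4, a helicase needed for origin firing, rose by 0.28 (adjusted p = 0.0402). Dtymk, which phosphorylates thymidylate, rose by 0.25 (adjusted p = 0.0482), and E2f6, a repressive E2F, by 0.25 (adjusted p = 0.0470). Rrm2b, the ribonucleotide reductase subunit induced by p53, measured 10.3, 11.8 and 10.99 CPM in control and 10.9, 9.90 and 9.94 CPM in ICF samples and was not called (-0.11, adjusted p = 0.562).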

How the data were processed

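RNA sequencing covered 3 control and 3 ICF samples. The authors prepared strand-specific libraries, used FastQC for read quality, Trimmomatic for filtering and HISAT2 for mapping, and deposited HTSeq counts per gene without normalization. The submitters' processing notes add bcl2fastq 2.19 and list the builds GRCm38 and hg38 without a role, and other tool versions are not given in the sources used here. HTSeq's summary entries were left out of library sizes (no feature, 6.18% to 9.33%). The highest no-feature shares were those of replicate 3, 9.33% in control and 9.0% in ICF.

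GENCODE M21 (GRCm38) named 50462 of 50686 identifiers. Counts were tested with edgeR 4.0.16 in R 4.3.3 (TMM, filterByExpr, glmQLFit, glmQLFTest), with adjustment over 16729 genes and a threshold of 0.05. SEs are from SDs of log2 CPM and 95% intervals from limma 3.58.1. Alternatives were DESeq2 1.42.0, RLE size factors, other filters, the replicate block and left-out samples, 15 in all, with 2 added after the data were seen. Deviations from the group mean correlated by 0.15, 0.2 and 0.38 between control and ICF samples of donor numbers 1, 2 and 3, each over 0.1, so these numbers were taken to pair samples. Unlike numbers gave 0.26 (control 1, ICF 2) and 0.17 (control 2, ICF 1), and -0.34 to -0.24 with replicate 3, so numbers 1 and 2 are not told apart by the data. Replicates 1 and 2 of a group differed by more than sampling noise (median chi-square 0.963 and 1.04, where noise gives 0.455). Against replicate 3 the values were larger, 3.14 and 2.67 in control and 4.01 and 4.85 in ICF. The ICF values include the library with counts in steps of 4. Shared reads were estimated from 75-base stretches of the longest transcript. Promoter sequences are RefSeq's. On simulated counts (16520 genes, 200 changed), 12% of 1.2-fold, 76% of 1.4-fold and 98% of 2-fold changes were recovered, and 4.03% of calls were false. The simulated samples were independent draws with a dispersion set by abundance. They had no shared deviation of replicate 3 and no counts in steps of 4, so these rates may differ for the replication genes. Intervals cover the spread between these samples only.

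Genes named with values were those past the threshold, the highest and lowest fold change and the highest level per kilobase of each complex, Orc2, Cdc6 and Tfdp1, and Rrm2b. Others were named after their values were seen. Genes and lists were chosen with earlier results of these data known.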

Additional observations from a re-analysis of the deposited data

How the results depend on the processing

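The number of replication genes called higher was 1 without the replicate block and 9 with it in edgeR, 7 with the block in DESeq2, 5 in DESeq2 without it, 0 with RLE size factors, 1 with a looser filter (Orc2 in place of Dbf4), 7 without replicate 3 of both groups, 5 when that was combined with the block, 10 with the block and the counts of ICF replicate 3 divided by 4, and 0 to 1 when 1 sample was left out. The number called lower was 0, and in the same order 6, 4, 1, 0, 0, 7, 5 and 6, with 0 to 1 when 1 sample was left out. Of the further replication genes, 4 were higher, with 13 under the block in edgeR, 9 in DESeq2 with the block, 11 without replicate 3 of both groups, 7 when combined with the block and 13 with the divided counts, and 3 were lower, with 5, 6 without replicate 3 of both groups and 5 with the divided counts. Leaving out 1 sample gave 0 to 3 higher and 0 to 3 lower. Shares of all genes are given above for edgeR with and without the block and for DESeq2 without it. They are also given for edgeR without ICF replicate 3, and with the block but without replicate 3 of both groups. Counts under the other settings have no such share beside them, so they cannot be set against all genes. The summed MCM2-7 level was -0.048 to 0.028 (log2) with 1 sample left out, that of helicase activation 0.057 per kilobase of exon, and that of the polymerases -0.090 per kilobase and -0.092 to -0.024 with 1 sample left out. Genes near 0 changed sign: Orc6 was 0.0034, 0.010 and 0.0044 without control replicate 1, control replicate 2 or ICF replicate 3, Mcm3 0.0041, 0.026 and 0.033 in the same order (-0.073 without control replicate 3), and Gins4 -0.040 without control replicate 3, -0.0014 without ICF replicate 2, and -0.033 and -0.033 without replicate 3 of both groups, without and with the block. The cause of these changes was not tested. Leaving a group with 2 samples assumes that it varies like the other, and at 3 samples per group changes of about 1.2-fold were mostly below what the simulated test recovered. The simulated samples lacked the shared deviation of replicate 3, so recovery in the real samples may differ. The block combined with the divided counts, and combined with leaving out replicate 3, was chosen after seeing the data.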
